A study of Arabidopsis thaliana with 6 samples.

Results

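Histone H3 is made in several forms, and 9 Arabidopsis thaliana genes for 3 of them were followed here: 5 genes of H3.1 (HTR1, HTR2, HTR3, HTR9 and HTR13), 3 of H3.3 (HTR4, HTR5 and HTR8) and the centromeric H3 gene HTR12. They were taken by probe set identifier (a locus name with the ending _at), a rule that uses no measured value, from a table of 27826 rows, and each of the 9 had a row of its own. The samples were embryos of 16 cells, taken 72 h after flowers were pollinated by hand, and RNA was measured on 6 microarrays. For 3 arrays nuclei were isolated first and nuclear RNA was used; the isolation, INTACT, puts a biotin tag on the nuclear envelope of marked cells and binds their nuclei to streptavidin. For the other 3, total (cellular) RNA came from intact embryos freed with a micromanipulator. All plants grew on soil at 22 °C in long days. No strain, no promoter behind the whole-embryo INTACT marker and no number of embryos per sample is given in the sources used here. Each group has 3 samples that the labels describe as biological replicates. Nuclear and cellular RNA were also isolated in different ways, so the RNA compartment and the isolation method cannot be told apart.

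Nucleosomes wrap DNA around an octamer that holds paired H3 and H4 molecules. H3.1 is made and built into chromatin when DNA is replicated, through the chaperone complex CAF-1. H3.3 is made throughout the cell cycle and is put in outside replication, above all at transcribed genes, by chaperones such as the HIRA complex and ATRX. Centromeric H3 takes the place of ordinary H3 in the nucleosomes that carry the kinetochore, to which spindle microtubules attach at mitosis. An early embryo divides in quick succession, so every new round of replication needs a fresh supply of H3.

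All values below are log2 intensities, and every change is nuclear minus cellular on that scale. The median intensity of an array lay between 2.47 and 2.68, the table has no detection calls, and a fold against a level near those medians is compressed. Of 27241 genes tested, 1284 were lower and 313 (1.15%) higher in nuclear RNA by limma's two-sided test at an adjusted p (Benjamini-Hochberg) under 0.05. After cyclic loess between arrays these were 846 lower and 489 higher, so lower genes made up 63.4% of calls, against 80.4% as deposited. The median change of all genes was 0.13, and 39.1% of genes had a lower nuclear than cellular mean. The precision is limited by the number of arrays, 3 per group. Cellular replicate 3 lay nearer to the nuclear arrays (mean r of 0.807 over genes) than cellular replicates 1 and 2 did (0.699 and 0.745). The arrays' tissue was checked with markers: 6 of 10 early embryo markers fell in nuclear RNA, against 4.71% of all genes called lower. The summed intensity of the 10 was 267 to 507 on nuclear arrays and 879 to 1866 on cellular arrays. WOX2, ESR1 and WOX9, patterning genes with the largest falls of the 10, were at 1.65 to 3.11 on nuclear arrays and 5.50 to 8.71 on cellular arrays. The protoderm genes ATML1 and PDF1 did not pass and were well above the array medians, at 4.73 to 8.71 on nuclear arrays and 6.91 to 9.32 on cellular arrays. Of the 10, 3 were at or below the array median on all nuclear arrays and 1 on all cellular arrays. Of 15 markers of the seed coat, a maternal tissue around the embryo, 14 had a higher nuclear mean, 0 passed the limma test and 4 had an unadjusted p under 0.05, all with the nuclear mean above (10.1% of all genes were higher at that threshold). Their summed intensity was 2564 to 6049 on nuclear arrays and 457 to 3222 on cellular arrays, and no marker was at 0. Of 9 endosperm markers, 6 were at or below the array median on all 6 arrays. The summed intensity of the 9 was 33.8 to 69.9 on nuclear arrays and 31.7 to 39.9 on cellular arrays, highest in nuclear replicate 2. The part of these tissues in the results below was not tested.

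On nuclear arrays the H3.1 genes were lower than on cellular arrays: 4 of 5 fell, by 2.98-fold (HTR9) to 12.5-fold (HTR2), and the fifth, HTR3, did not pass the test. Over all genes tested, 4.71% were called lower. The arrays of both groups were separate for those 4 genes, and 14.4% of all genes had every nuclear array below every cellular one. The median change of the 5 genes was -2.32, against 0.13 for all genes. In bulk RNA, fewer cells that express a gene and less of its RNA per cell cannot be told apart.

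HTR2 (AT1G09200_at) had 5.61, 3.096 and 6.003 in nuclear replicates 1 to 3, against 8.81, 8.61 and 8.21 in cellular replicates 1 to 3. Its nuclear arrays lay at least 2.21 below the cellular ones, and nuclear replicate 2 was by far the lowest. HTR2 fell by 3.64 (SE 0.75, limma adjusted p = 0.0462), the largest change of the 9 genes. HTR1 (AT5G65360_at) had 4.55, 4.48 and 5.91 in nuclear replicates, against 7.70, 7.76 and 7.05 in cellular replicates. Nuclear replicate 3 came closest to the cellular arrays, yet a gap of 1.15 remained. HTR1 was 5.76-fold lower (log2 change -2.53, SE 0.44, limma adjusted p = 0.0285).

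HTR13 (AT5G10390_at) had 4.84, 4.73 and 4.76 in nuclear replicates, against 7.42, 7.40 and 6.48 in cellular replicates. The nuclear arrays agreed within an SD of 0.06, the smallest of the 9 genes, and on the cellular side replicate 3 was the low one. HTR13 was 5.01-fold lower (log2 change -2.32, SE 0.30) and had the lowest adjusted p of the 9 genes, 0.0124 (limma). HTR9 (AT5G10400_at), which is next to HTR13 on chromosome 5 with no gene between them, had 3.73, 3.45 and 3.99 in nuclear replicates and 5.54, 5.24 and 5.11 in cellular replicates. It fell by 1.57 (SE 0.23, limma adjusted p = 0.0167), less than its neighbour.

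HTR3 (AT3G27360_at) had 3.98, 2.31 and 3.59 in nuclear replicates, against 5.57, 5.31 and 3.296 in cellular replicates. Cellular replicate 3 lay below nuclear replicates 1 and 3, so the groups overlapped. The log2 change was -1.43 (SE 0.72, 95% interval -3.17 to 0.30, limma adjusted p = 0.282), and without cellular replicate 3 it was -2.15 (limma adjusted p = 0.0815). Cellular replicate 3 was the lowest cellular array for all 5 H3.1 genes, and for HTR3 by the widest margin. The H3.1 genes encode one form of H3, their sequences were not compared, and the probe set definitions are not given in the sources used here. Any signal shared between these genes therefore cannot be separated. No H3 gene shared all 6 of its values with another row.

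**Figure D1:**
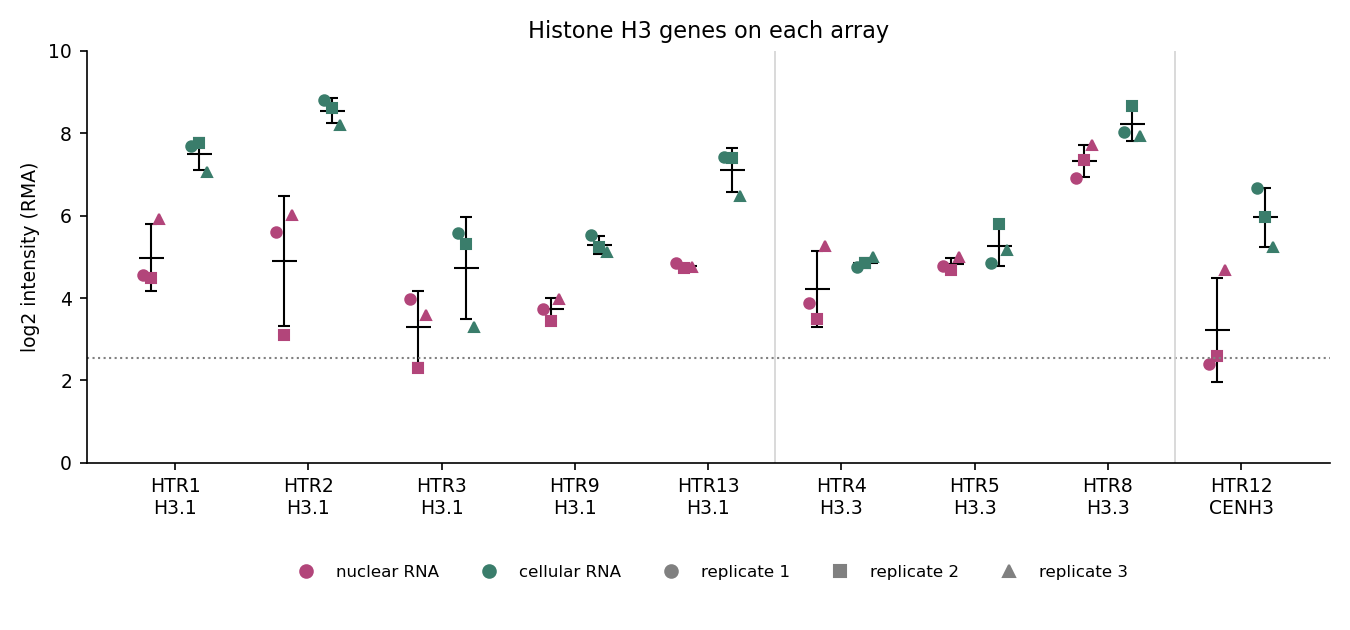
Log2 RMA intensity of the 9 H3 genes on each array, with nuclear RNA left of cellular RNA for each gene. Points are arrays, horizontal ticks and bars are the mean and SD (n = 3), and the dotted line is the mean of the array medians. HTR1, HTR2, HTR9, HTR13, HTR8 and HTR12 have all nuclear points below all cellular points, while HTR3, HTR4 and HTR5 overlap.

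The H3.1 calls rested on few arrays. Without cellular replicate 1 or without cellular replicate 2, 0 of 5 passed (limma), though the changes of the 4 called genes stayed between -3.60 and -1.45. Adjusted p without cellular replicate 1 was 0.102 for HTR1, 0.147 for HTR2, 0.0677 for HTR9 and 0.0503 for HTR13. Without cellular replicate 2 it was 0.118 for HTR1, 0.156 for HTR2, 0.0761 for HTR9 and 0.0621 for HTR13. HTR1 also lost its call without nuclear replicate 1 (adjusted p = 0.0752) and when nuclear replicate 2 was left out (adjusted p = 0.0842). For HTR2 this happened without nuclear replicate 1 (adjusted p = 0.0754) and when cellular replicate 3 was left out (adjusted p = 0.0738). Counts over all genes fell as well, to 436 lower genes without cellular replicate 1 and 254 without cellular replicate 2. Without nuclear replicate 2, where HTR2 was lowest, its change was -2.73 and it passed (adjusted p = 0.0265). Without cellular replicate 3, the cellular array most like the nuclear ones, HTR1, HTR9 and HTR13 passed. Each of the 5 genes had a negative change under every one of the 14 alternatives run, these 6 included. For the 4 called genes the groups did not overlap, so leaving out or weighting arrays could not turn the sign. Some of the others alter only the variance or the genes tested, so the change stays as deposited and its sign was fixed. Median centring lowered every change by the same amount, so a negative sign was fixed there too.

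**Figure D2:**
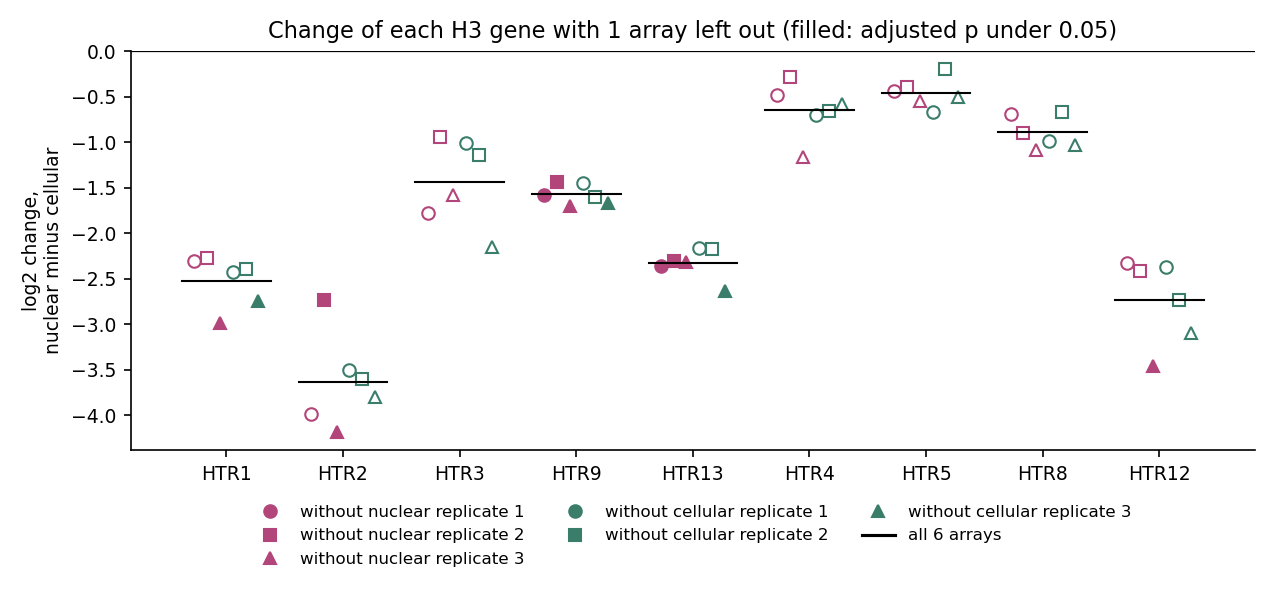
Log2 change (nuclear minus cellular) of each H3 gene with 1 array left out. Black bars are the values with all 6 arrays, colours and shapes name the array left out, and filled symbols have an adjusted p under 0.05. All symbols lie below 0, and 0 of the H3.1 symbols are filled without cellular replicate 1 or without cellular replicate 2.

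H3.3 genes lay less far apart. None of the 3 passed the limma test (1, HTR8, was lower at an unadjusted p under 0.05, as were 13.3% of all genes), and their changes were -0.46 to -0.89, with a median of -0.64. The median shrank to -0.23 after cyclic loess and to -0.31 after quantile normalization. HTR8 (AT5G10980_at) had 6.92, 7.35 and 7.70 in nuclear replicates, against 8.03, 8.67 and 7.94 in cellular replicates. The groups did not overlap, but nuclear replicate 3 and cellular replicate 3 were only 0.24 apart. The change of HTR8 was -0.89 (SE 0.30, 95% interval -1.62 to -0.16, limma adjusted p = 0.150).

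HTR4 (AT4G40030_at) had 3.89, 3.50 and 5.26 in nuclear replicates, against 4.74, 4.85 and 4.99 in cellular replicates. Nuclear replicate 3 was above every cellular array, while the other 2 nuclear arrays were below them all. Its change was -0.64 (95% interval -1.75 to 0.46, limma adjusted p = 0.420), and -1.17 without nuclear replicate 3 (limma adjusted p = 0.0565). HTR5 (AT4G40040_at), the gene next to HTR4 on chromosome 4, had 4.77, 4.68 and 4.999 in nuclear replicates and 4.84, 5.79 and 5.17 in cellular replicates. Its nuclear arrays were tightly grouped (SD 0.17), and nuclear replicate 3 lay above cellular replicate 1. The change was -0.46 (95% interval -1.14 to 0.23, limma adjusted p = 0.369), and -0.19 without cellular replicate 2 (limma adjusted p = 0.703). These intervals do not exclude a fall of more than 2-fold for any of the 3 H3.3 genes.

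HTR12 (AT1G01370_at), the centromeric H3 gene also called CENH3, had 2.39, 2.59 and 4.68 in nuclear replicates, against 6.68, 5.96 and 5.23 in cellular replicates. Nuclear replicates 1 and 2 were below their array medians of 2.56 and 2.68, whereas nuclear replicate 3 was well above its own and only 0.55 below cellular replicate 3. The groups did not overlap, and the 6.66-fold lower nuclear mean did not pass the test (log2 change -2.74, SE 0.69, 95% interval -4.40 to -1.07, limma adjusted p = 0.0747). Without nuclear replicate 3 the change was -3.47 and passed (limma adjusted p = 0.0266). It also passed when only genes above the median level were tested (adjusted p = 0.0323) and with a trended robust variance (adjusted p = 0.0497), while adjusted p over all 14 alternatives ranged from 0.0266 to 0.214. In these 2 fits the change itself stayed at -2.74. The median level was judged on a gene's mean over all 6 arrays, so the high cellular values of HTR12 counted towards it.

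**Figure D3:**
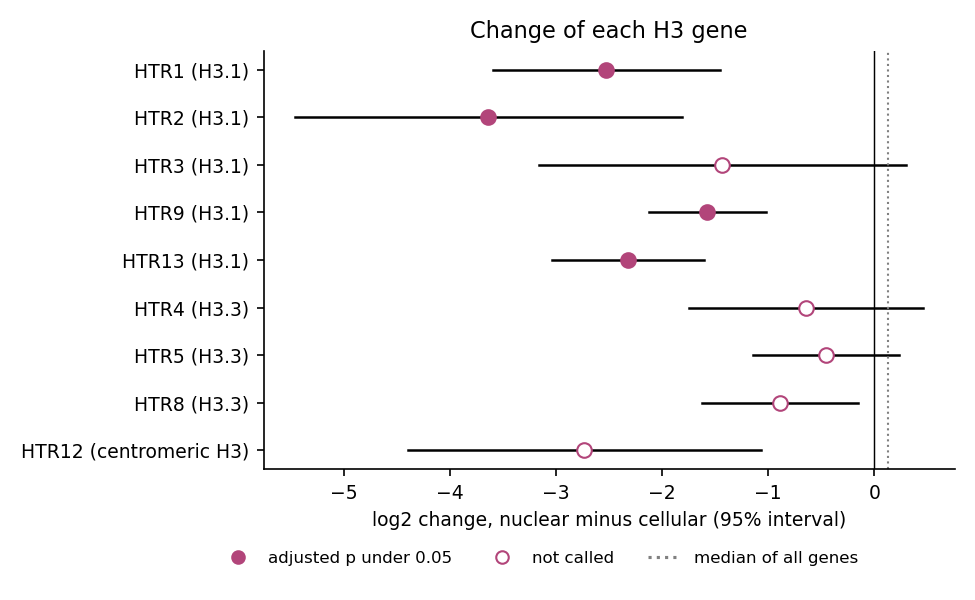
Log2 change (nuclear minus cellular) of the 9 H3 genes with its 95% interval from the fit across all genes, filled where the adjusted p was under 0.05. The dotted line marks the median of all genes, 0.13. The intervals of HTR3, HTR4 and HTR5 reach past 0.

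Set side by side, all 9 genes had a lower nuclear than cellular mean (39.1% of all genes), and 6 of 9 had all nuclear arrays below all cellular ones (14.4% of all genes). Averaged over the 5 genes, H3.1 was 4.54, 3.61 and 4.85 on nuclear replicates 1 to 3, against 7.01, 6.86 and 6.03 on cellular replicates. The mean of the 3 H3.3 genes was 5.19, 5.17 and 5.99 on nuclear replicates, against 5.87, 6.44 and 6.03 on cellular replicates. Thus the H3.1 averages were separate by more than 1 log2 unit, while the H3.3 average of nuclear replicate 3 lay within the cellular range. The H3.1 mean minus the H3.3 mean within an array was -0.65, -1.56 and -1.14 in nuclear replicates, against 1.13, 0.43 and 0.00 in cellular replicates. Nuclear arrays had the lower value in every case, and cellular replicate 3 was the nearest to them. In each of the 15 pairings of an H3.1 with an H3.3 gene the log2 ratio was lower in nuclear RNA. The differences were -3.18 (HTR2 to HTR5) to -0.54 (HTR3 to HTR8), with a median of -1.64. Each is the change of the H3.1 gene minus that of the H3.3 gene. Every H3.1 change was below every H3.3 change, so this count was fixed by the changes given above. The pairings reuse the same genes and arrays and are not replicates. Whether the classes changed unequally was not tested, since the genes were chosen with results of these arrays known.

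Within groups, the members followed one another to different degrees. Over the 6 arrays, Pearson's r between H3.1 genes was 0.739 to 0.971 (median of 10 pairs 0.911), between H3.3 genes 0.555 to 0.843, and between H3.1 and H3.3 genes 0.443 to 0.910 (median of 15 pairs 0.634). HTR12 was closest to HTR1, with r = 0.978, and farthest from HTR5, with r = 0.566. These 6 points share 2 groups, so a group difference alone raises r. After each group mean was taken away, HTR12 and HTR1 still had r = 0.955, the highest of all the pairs. In both genes nuclear replicate 3 was the highest nuclear array. With the 5 H3.1 genes HTR12 then had r of 0.398 to 0.955 (median 0.553), and the median over H3.1 pairs was 0.660. The adjacent genes HTR9 and HTR13 had r = 0.489 after that step, and the adjacent genes HTR4 and HTR5 had 0.356, both within the range of the other pairs of H3 genes. The values are descriptive, and no test was made on them.

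Among 6320 named genes above the median level, those most like the H3.1 mean over the 6 arrays were La1 (r = 0.996), CARB (r = 0.996) and MOR1 (r = 0.994). La1 had 4.05, 3.16 and 4.58 in nuclear replicates, against 7.60, 7.04 and 6.01 in cellular replicates, which is the order of the H3.1 mean. In all, 10.7% of those genes had r over 0.9 with the H3.1 mean, 6.44% with HTR12 and 1.76% with the H3.3 mean, so a high r was common. For HTR12 the most alike were THO7 (r = 0.995), TRM10 (r = 0.991) and SMP1 (r = 0.991). THO7 was at only 2.26 to 3.12 over the 6 arrays, and TRM10 and SMP1 were below the array medians in nuclear replicates 1 and 2. For the H3.3 mean the most alike were GCP4 (r = 0.987), scpl50 (r = 0.986) and AZI1 (r = 0.986). In nuclear replicates 1 and 2, scpl50 and AZI1 were at 2.15 to 2.73, near those medians. The median level was judged on a gene's mean over both groups, so high cellular values counted towards it.

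**Figure D4:**
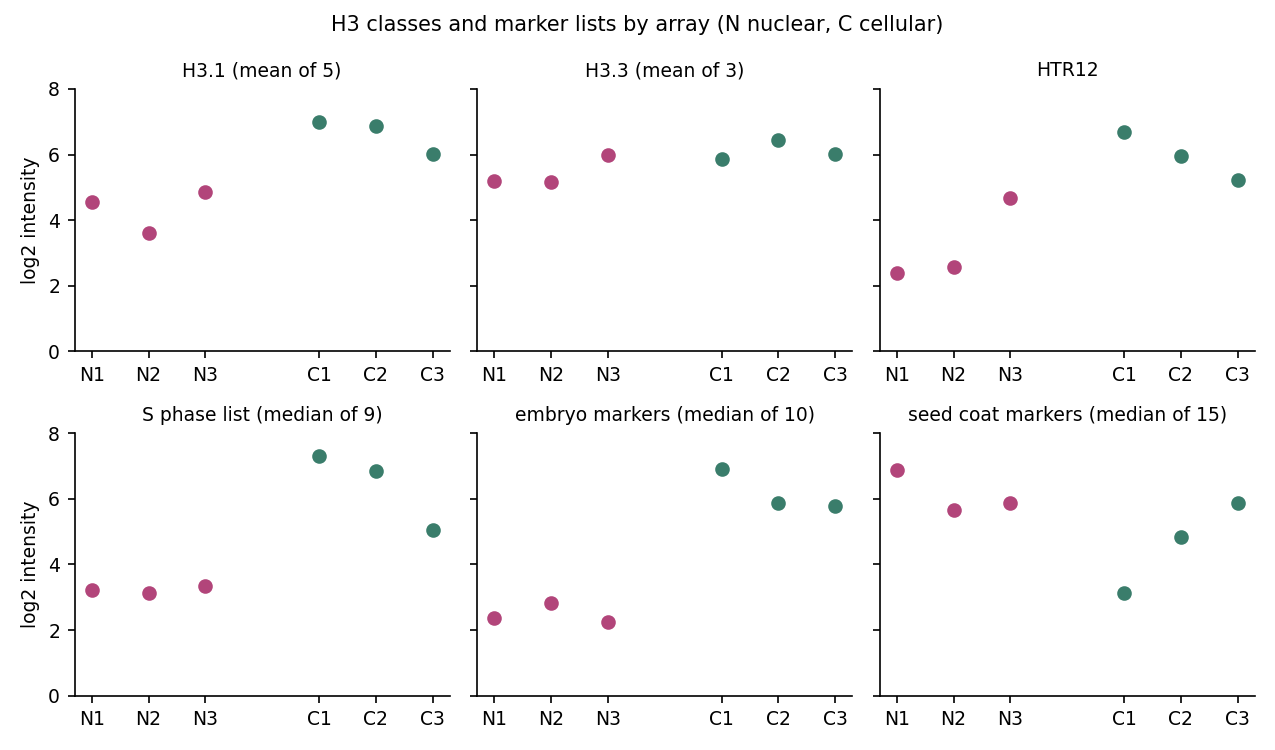
Mean log2 intensity of the H3.1 and H3.3 genes, the level of HTR12, and the median of 3 gene lists on nuclear (N1 to N3) and cellular (C1 to C3) arrays. H3.1, HTR12, the S phase list and the embryo markers are lower on all nuclear arrays than on any cellular array. Seed coat markers are at 5.66 to 6.89 on nuclear arrays and at 3.12 to 5.87 on cellular arrays.

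The other H3 genes gave no call. Of 5 measured, 0 passed the limma test (1 was higher at an unadjusted p under 0.05, against 10.1% of all genes), and 4 had a nuclear mean above the cellular one. That direction was the more common one, since only 39.1% of all genes had a lower nuclear mean. MGH3, the H3 gene of male gametes, had 2.76, 4.42 and 3.50 in nuclear replicates and 2.27, 2.15 and 2.35 in cellular replicates (log2 change 1.30, limma adjusted p = 0.133). HTR11, which lies beside HTR1 on chromosome 5 with no gene between them, had 5.03, 2.94 and 7.46 in nuclear replicates and 10.79, 4.90 and 4.801 in cellular replicates. Cellular replicate 1 stood over 5 log2 units above the other cellular arrays for this gene, and without it the change turned to 0.30, against -1.68 with all arrays (limma adjusted p = 0.602). The remaining 3, AT1G13370, AT1G75600 and AT5G12910, had group means of 1.38 to 2.61, near or below the array medians.

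Of 12 chaperone genes that handle H3, in 3 lists, 3 fell, 0 rose and 9 were not called, against 4.71% of all genes called lower. Of the 3 CAF-1 subunits, which load H3.1, 1 fell: FAS1, the large subunit, had 4.68, 3.57 and 2.33 in nuclear replicates, against 7.27, 7.55 and 6.64 in cellular replicates. No nuclear array came near the cellular ones, and FAS1 was 12.4-fold lower (log2 change -3.63, SE 0.60, limma adjusted p = 0.0247). MSI1, a WD40 subunit shared with Polycomb complexes, had a change of -2.09 (adjusted p = 0.0719) and FAS2, the middle subunit, -1.38 (adjusted p = 0.236), with cellular replicate 3 of FAS2 at 2.16, below 2 of its nuclear arrays.

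Of 6 genes of H3.3 deposition, 1 fell (4.71% of all genes were called lower), and the median change was -1.04, against 0.13 for all genes. ATRX, a chromatin remodeller that deposits H3.3, had 4.31, 3.44 and 4.71 in nuclear replicates and 6.38, 6.61 and 5.83 in cellular replicates (log2 change -2.12, SE 0.39, limma adjusted p = 0.0317). HIRA, the scaffold of the HIRA complex, was at 2.37 to 2.69 on nuclear arrays and 2.66 to 3.51 on cellular arrays (change -0.38, limma adjusted p = 0.442). Its partners UBN1, UBN2 and CABIN1 had changes of -0.95, -1.92 and -0.24 and did not pass, and neither did DEK3, a DEK domain protein, at -1.14. ASF1A and ASF1B pass H3 and H4 to both routes. ASF1B fell by 2.01 (SE 0.39, limma adjusted p = 0.0394), and ASF1A had a change of -1.48 (adjusted p = 0.140). The third gene of that list, AT4G37210, which the gene table does not name, had -2.31 (adjusted p = 0.0644).

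Around HTR12, 3 of 7 listed genes of CENH3 loading and the kinetochore fell (4.71% of all genes did), and the median change was -1.76. CENP-C, the inner kinetochore protein that binds CENH3 nucleosomes, had 3.45, 3.36 and 4.31 in nuclear replicates and 5.74, 5.79 and 5.49 in cellular replicates. As with HTR12, nuclear replicate 3 was the highest of its group, and CENP-C fell by 1.96 (SE 0.30, limma adjusted p = 0.0196). The other falls were of AT1G61000 (change -2.77, adjusted p = 0.00914) and AT3G48210 (change -1.76, adjusted p = 0.0230), which the gene table does not name. MIS12, of the kinetochore complex of that name, had a change of -1.84 (adjusted p = 0.127). KNL2, which helps to load CENH3, was at 2.62 to 2.97 on nuclear arrays and 2.57 to 3.42 on cellular arrays (change -0.08, limma adjusted p = 0.880).

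Enzymes that act on H3 gave no call: 0 of 3 readers and writers of H3.1 and 0 of 4 mitotic H3 kinases passed limma, with 2 and 3 of them lower at an unadjusted p under 0.05, a threshold that 13.3% of all genes met on the lower side. ATXR6, which puts a single methyl group on lysine 27 of H3.1, had 1.91, 3.07 and 1.96 in nuclear replicates, against 5.80, 4.04 and 4.005 in cellular replicates (change -2.31, limma adjusted p = 0.0756). Its relative ATXR5 was at 2.03 to 2.65 on nuclear arrays and 2.22 to 3.09 on cellular arrays. TSK, which reads newly placed H3.1 at replication forks, had a change of -1.75 (adjusted p = 0.112). Among the kinases, AUR1 had the widest difference, -2.81 (adjusted p = 0.0601), and HASPIN had -1.12 (adjusted p = 0.0813).

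H4 genes, whose product pairs with H3, had 0 of 8 calls by limma and 6 at an unadjusted p under 0.05, all lower, against 13.3% of all genes lower at that threshold. Of these 8 loci the gene table names 1 as an H4 gene, HIS4 (AT2G28740), and the rest were listed from general knowledge. Their median change was -1.32, and 7 of 8 had all nuclear arrays below all cellular ones, against 14.4% of all genes. HIS4 had 10.19, 8.29 and 10.22 in nuclear replicates, against 11.19, 10.88 and 10.93 in cellular replicates (change -1.43, limma adjusted p = 0.180). As with HTR2, nuclear replicate 2 was its lowest array. The lowest p belonged to AT3G46320 (change -0.80, adjusted p = 0.0590) and AT3G45930 (change -1.28, adjusted p = 0.0796).

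Genes of S phase, when H3.1 is made, fell in 4 of 9 cases, against 4.71% of all genes, with a median change of -2.56. PCNA2, a sliding clamp of replication forks, had 2.55, 2.57 and 3.13 in nuclear replicates, against 7.52, 7.44 and 5.95 in cellular replicates. It was 18.7-fold lower (change -4.22, SE 0.46, limma adjusted p = 0.00914), with nuclear levels near the array medians. RNR1, the large subunit of ribonucleotide reductase, fell by 3.61 (adjusted p = 0.0185), and CDT1A, which licenses replication origins, had a change of -3.102 (adjusted p = 0.0124). PCNA1 fell by 2.83 (adjusted p = 0.0426). Pearson's r of the 9 genes with the H3.1 mean over the 6 arrays was 0.618 to 0.970. In the other lists r was as low as -0.888 (MGH3) and as high as 0.994 (ATRX). A group difference alone raises r.

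Across the 9 lists, 10 of 48 genes fell and 0 rose, against 4.71% lower and 1.15% higher among all genes. Leaving out cellular replicate 2 kept 1 of those 10 calls, PCNA2 (adjusted p = 0.0484). Without cellular replicate 1, 3 of 10 passed, and without nuclear replicate 1 or nuclear replicate 2, 4 of 10 each. Without nuclear replicate 3, 7 of 10 passed, and without cellular replicate 3 all 10. Adjusted p over these 6 settings was at most 0.149, and the changes were -4.73 to -1.52.

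**Figure D5:**
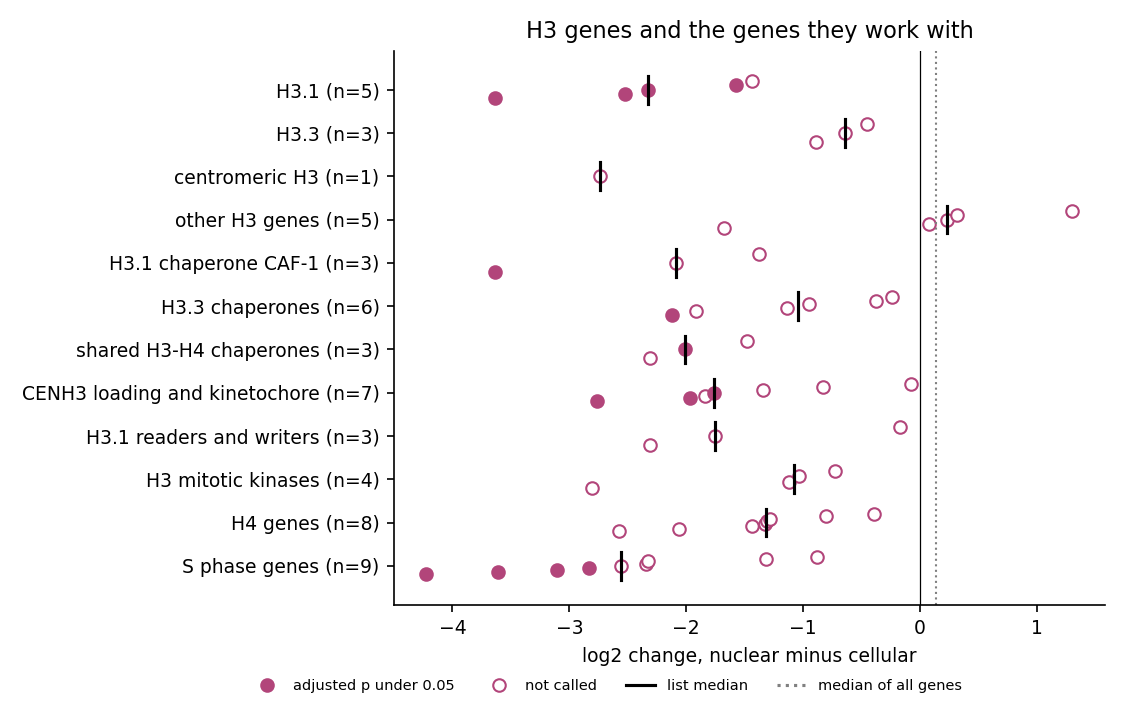
Log2 change (nuclear minus cellular) of the 9 H3 genes and of the 48 genes in 9 lists. Each circle is a gene, filled where the adjusted p was under 0.05, black ticks are list medians and the dotted line is the median of all genes. Apart from 4 of the 5 other H3 genes, every circle lies below 0.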

How the data were processed

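Per the submitters' processing notes, the authors ran RMA, and the deposited intensity values hold 1 linear number per locus and array. No version, array type or probe set definition is given in the sources used here. Because RMA normally equalises the probe distributions of all arrays, changes between RNA pools that differ in composition can be shifted by it. The values were put on the log2 scale without renormalizing or filtering. Groups and replicate numbers came from the sample titles. Rows were named from RefSeq (TAIR10.1): 27241 of 27826 matched and 585 were left out. No build is named for the array, so no coordinates are given. The test was limma 3.58.1 (R 4.3.3; lmFit, then eBayes, with 4 residual and 2.33 prior degrees of freedom), and p-values were adjusted over all 27241 genes.

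The members are picked by identifier, not by value, but which families and lists to describe was chosen with earlier results of these data known. Named genes are the 9 members, the passing genes of each list (at most 3 by size of change), or the 2 lowest p where none passed, and any gene of a list of 7 or fewer. PCNA1, the fourth S phase call, AT1G07820, the H4 gene HIS4 and the markers ATML1 and PDF1 were named after their values were seen. Likeness was Pearson's r over the 6 arrays among named genes above the median level. Alternatives were cyclic loess, quantile normalization, median centring, all rows, genes above the median level, array weights, a trended robust variance, a replicate block and each array left out. The fit was tested on simulated data with known changes. H3 sequences were not used here.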

Additional observations from a re-analysis of the deposited data

How the results depend on the processing

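All 9 H3 genes had a negative change under all 14 alternatives, although HTR5 was at -0.0049 after cyclic loess, and HTR3, HTR4, HTR5 and HTR8 passed under none. All rows, genes above the median level, the trended robust variance and the replicate block leave the change itself as deposited. Its sign was therefore fixed in those fits. Median centring lowered every change by 0.11, so a negative sign was fixed there as well. For the 6 H3 genes whose groups did not overlap, neither array weights nor leaving out 1 array could turn the sign. Of the 5 H3.1 genes 4 fell as deposited, with 0 to 4 over the fits without 1 array, and HTR13 alone with the replicate block (1 of 5). Same-numbered nuclear and cellular arrays did not deviate together (r = -0.05, -0.06 and -0.01), so the numbers were not taken as pairs. HTR12 ranged from -3.47 to -2.32 without 1 array, and its value of -2.74 passed over genes above the median level and with the trended robust variance. Listed genes that fell numbered 10 as deposited, 5 with the replicate block and 1 to 20 without 1 array. Over genes above the median level they numbered 17. That level was judged on a gene's mean over both groups, so high cellular values counted towards it, and fewer genes were tested. The count of 17 therefore cannot be separated from that choice of genes. Over all genes 1284 were lower and 313 higher. Cyclic loess gave 846 lower and 489 higher, the replicate block 571 and 118, and the fits without 1 array 254 to 1688 lower and 28 to 419 higher. HTR2 lost its call after cyclic loess, at an adjusted p of 0.0603, and after quantile normalization, at 0.0657. HTR9 lost its call with the trended robust variance (adjusted p = 0.0557). Of the listed genes, ASF1B and PCNA1 lost theirs after both normalizations, and AT3G48210 after cyclic loess. Genes with no call changed sign in some fits. AT1G13370 (0.07) was at -0.0885 after cyclic loess, -0.0295 after quantile normalization and -0.0316 after median centring. AT1G07820 (-0.40) was at 0.0726 after cyclic loess and 0.0152 after quantile normalization. Without 1 array, AT1G07820 ranged from -1.10 to 0.0261, HTR11 from -2.84 to 0.30, KNL2 from -0.22 to 0.20 and ATXR5 from -0.37 to 0.0644. The cause of these shifts was not tested. With no detection calls, differences among levels near the array medians of 2.47 to 2.68 cannot be told from background.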
